A study of Rattus norvegicus with 4 samples.

Results

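Collagens and the enzymes that build and crosslink them were followed in ribosome footprint libraries from heart muscle cell cultures after a knockdown of Cpeb4, which encodes an RNA-binding protein that acts on poly(A) tails and translation. The members were all genes whose symbol in the count files is that of a collagen chain (Col, a type number, a, a chain number), with the listed hydroxylases, lysyl oxidases, chaperone and propeptide processing proteins. This gave 60 of 22250 genes, 43 collagen chains and 17 of 20 listed enzymes and helpers. Leprel2, Crtap and Pcolce2 were not found under these symbols and were not analysed here.

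The cultures were ventricular cardiomyocytes isolated with trypsin and a percoll gradient from Wistar rats 1 to 2 days old. Of the 4 libraries, 2 came from cells given a control siRNA (siSCR) and 2 from cells given an siRNA against Cpeb4 (siCpeb4), with silencing for 72 h. The growth protocol shared by all 4 samples also names Torin1, an mTOR inhibitor, at 250 nM for 24 h without saying which cells received it, so it may apply to every group or to none here. The labels give polyA RNA as the molecule but describe footprints recovered from RNase-digested polysome fractions, and nothing in them ties replicates to independent cultures. The p-values therefore measure only the spread between these libraries, which may be technical.

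Gene counts ranged from 3554011 in siSCR replicate 2 to 5910911 in siCpeb4 replicate 2, and that last library was counted over footprints of 29 to 33 nt where the other 3 were counted over 29 to 34 nt. Cpeb4 had 60.2 and 72.5 CPM (footprint counts per 1000000, on the scaled library size) in the siSCR libraries and 8.18 and 9.80 CPM in the siCpeb4 libraries. Across 11335 genes tested, 212 (1.87%) were lower and 174 (1.54%) higher in siCpeb4 at an adjusted p under 0.05 (edgeR quasi-likelihood test, Benjamini-Hochberg adjustment over all genes), the threshold used for every call below. Both siCpeb4 libraries lay below both siSCR libraries in 22.3% of genes tested, and above both in 23.1%. Of 12 listed cardiomyocyte markers 11 were found (Ttn was not, under that symbol), none of these was at 0 or called, and their summed level was 101276 to 105911 CPM in siSCR and 101331 to 113118 CPM in siCpeb4.

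Collagens are secreted proteins of 3 chains wound into a helix. Prolyl and lysyl hydroxylases modify the chains in the endoplasmic reticulum, where the chaperone HSP47 (Serpinh1) holds the helix. Outside the cell, proteinases remove the propeptides and lysyl oxidases crosslink the fibrils. In the heart, fibrillar collagens of types I and III are made mainly by fibroblasts, whereas type IV forms the basement membrane that also surrounds each myocyte.

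Fibrillar collagens held 3 of the 4 collagens that fell. After Cpeb4 siRNA, Col1a1, Col5a1 and Col5a2 fell, as did the fibril-associated Col14a1, while the basement membrane chain Col4a4 and the lysyl oxidase homologue Loxl4 rose. Of 25 collagens tested, 4 (16%) fell and 1 rose, against 1.87% and 1.54% of all genes tested. Of the 17 enzymes and helpers, 0 fell and 1 rose. At an unadjusted p under 0.05 in edgeR, 6 of them were lower and 1 higher, as were 8.76% and 7.33% of all genes tested, and DESeq2 and limma-voom each called 1 decrease (Pcolce). Most changes of the other members were small and negative. A log2 fold change (siCpeb4 over siSCR) below 0 was seen for 22 of the 25 collagens and 15 of the 17 enzymes, against 50.5% of all genes tested.

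Of the 60 members, 42 passed the low-count filter, and 40 of these reached its level of expression in both libraries of each group. The exceptions were Col24a1, which reached it in both siSCR libraries and 1 siCpeb4 library, and Col22a1, which reached it in 1 library of each group. The 18 members that were not tested were all collagens with at most 27 counts over the 4 libraries together. Among them Col1a2, Col6a4, Col9a1, Col23a1 and Col28a1 had a count of 0 in every library, which allows up to 3 counts or 0.498 to 0.859 CPM per library. Col1a2 encodes the partner chain of Col1a1 in the type I heterotrimer. The cause of its count of 0 was not tested. Col9a3 had 13 and 6 counts in siSCR and 2 and 4 in siCpeb4, Col26a1 had 9 and 9 against 3 and 6, and Col27a1 had 1 and 2 against 4 and 7. These counts are too few to compare.

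**Figure D1:**
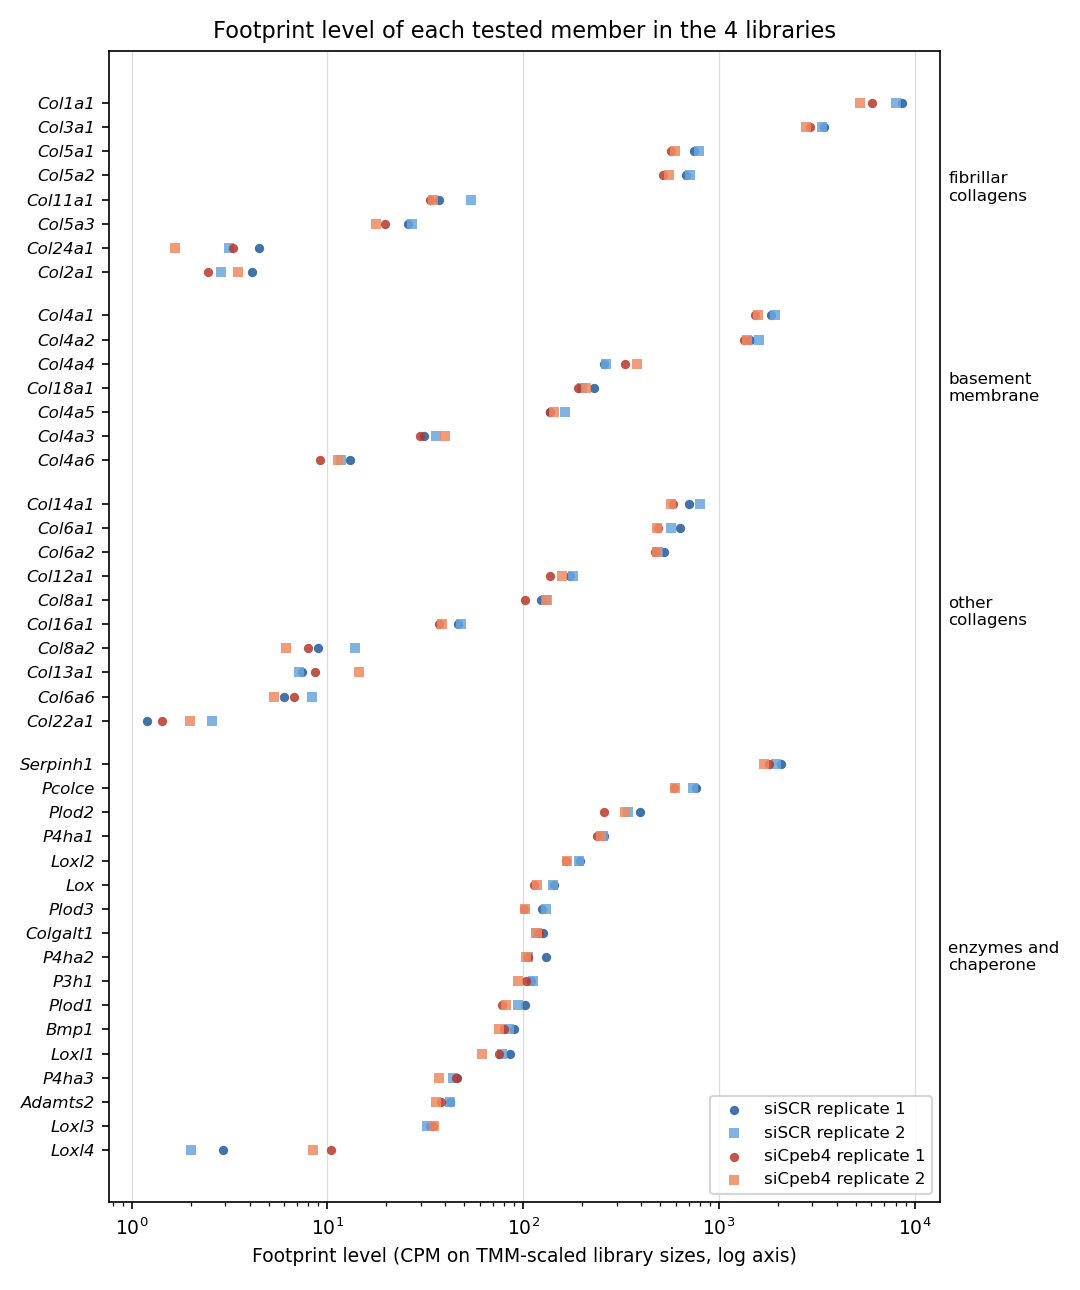
Footprint level of each of the 42 tested members in each library, in CPM on a log axis, by class (blue, siSCR; red and orange, siCpeb4; circles, replicate 1; squares, replicate 2). Col1a1 lies at 5277 and 6074 CPM in siCpeb4 and at 8007 and 8634 CPM in siSCR, and Loxl4 has all siCpeb4 points to the right of the siSCR points. Levels of different genes are not corrected for gene length.

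Col1a1 (ENSRNOG00000003897), the main chain of type I collagen, had 8634 and 8007 CPM in the siSCR libraries and 6074 and 5277 CPM in the siCpeb4 libraries. The groups did not overlap, and each siCpeb4 library was below each siSCR library by more than the replicates of a group differed. Its level fell by 31.8%, from 8321 ± 443 to 5675 ± 564 CPM (SD, n = 2), with a log2 fold change of -0.55 ± 0.11 (SE; edgeR adjusted p = 0.00339). Col1a1 alone held 43.7% and 41.2% of all collagen counts in the siSCR libraries and 39.1% and 35.3% in the siCpeb4 libraries. The call ended without siSCR replicate 1 (log2 fold change -0.50, edgeR adjusted p = 0.0552) and without siCpeb4 replicate 2 (-0.45, adjusted p = 0.0942).

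Col5a1 (ENSRNOG00000008749) and Col5a2 (ENSRNOG00000003736) encode the chains of type V collagen, which nucleates and limits the width of type I fibrils. Col5a1 had 745 and 792 CPM in siSCR and 568 and 593 CPM in siCpeb4. Col5a2 had 681 and 711 CPM in siSCR and 516 and 557 CPM in siCpeb4. In each gene both siCpeb4 libraries lay below both siSCR libraries. Col5a1 fell by 24.5% (log2 fold change -0.41 ± 0.10, edgeR adjusted p = 0.0223) and Col5a2 fell by 22.8% (-0.37 ± 0.10, edgeR adjusted p = 0.0378). Neither call survived the loss of any 1 library. The edgeR adjusted p then ran from 0.0525 to 0.219 for Col5a1 and from 0.054 to 0.263 for Col5a2, although the log2 fold changes stayed between -0.45 and -0.36 and between -0.43 and -0.32. Scaling to the library total alone also ended the Col5a2 call (adjusted p = 0.0657).

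The other fibrillar chains tested had negative values that were not called. Col3a1 (ENSRNOG00000003357), the type III chain that forms mixed fibrils with type I in the heart, had 3419 and 3363 CPM in siSCR and 2901 and 2795 CPM in siCpeb4. The groups did not overlap, but the log2 fold change of -0.25 ± 0.10 (95% interval -0.46 to -0.05) did not pass (edgeR adjusted p = 0.186). Col5a3, the third type V chain, had 25.7 and 26.9 CPM in siSCR and 19.6 and 17.6 CPM in siCpeb4 (log2 fold change -0.50 ± 0.18, edgeR adjusted p = 0.148). Col11a1, a minor fibril chain, had 37.2 and 54.1 CPM in siSCR and 33.6 and 34.5 CPM in siCpeb4. The siSCR libraries differed widely in this gene, and its log2 fold change went from -0.13 without siSCR replicate 2 to -0.67 without siSCR replicate 1, where it was called (edgeR adjusted p = 0.0434). Col2a1 and Col24a1 were near the detection limit, at 1.66 to 4.46 CPM in the 4 libraries, and their groups overlapped. Over the 8 fibrillar chains tested the median log2 fold change was -0.40, and all 8 values were negative, against a median of -0.0031 over all genes tested. These 8 include Col24a1, which reached the level of the low-count filter in both libraries of siSCR only. They also include Col2a1, which was at 0.07 without siSCR replicate 1. Col27a1, a fibrillar chain with too few counts to test, had 1 and 2 counts in siSCR and 4 and 7 in siCpeb4.

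**Figure D2:**
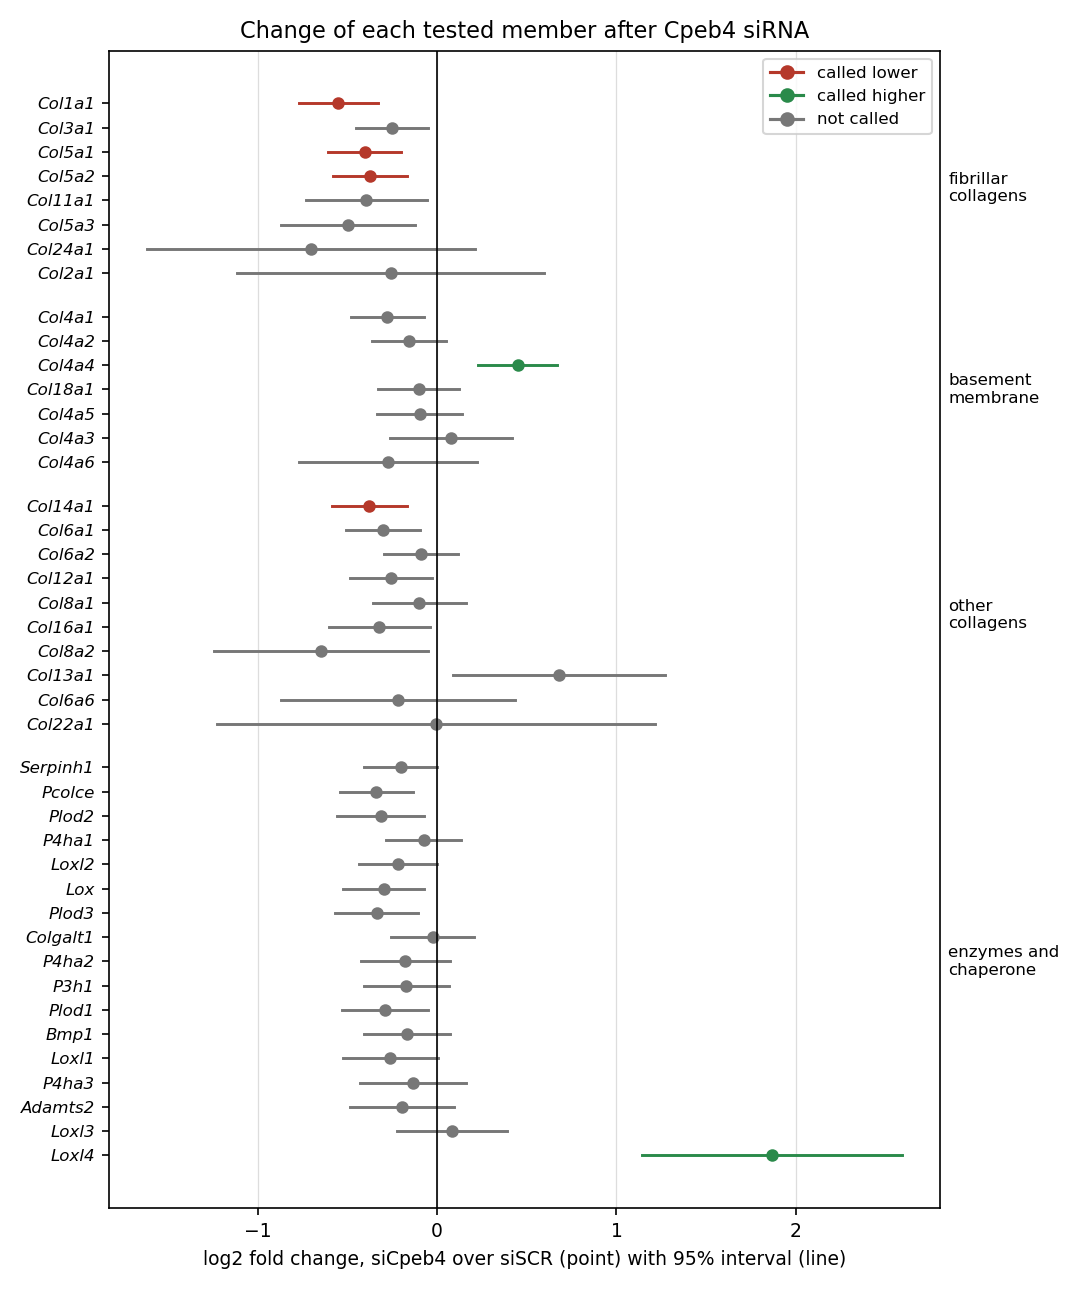
Log2 fold change of each of the 42 tested members (points, siCpeb4 over siSCR) with its 95% interval from the edgeR fit (lines), by class; red marks members called lower, green called higher and grey not called. The called decreases lie between -0.55 and -0.37, Col4a4 lies at 0.45 and Loxl4 at 1.87.

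Of 7 basement membrane collagens tested, Col4a4 rose and 0 fell, against 1.54% and 1.87% of all genes tested; at an unadjusted p under 0.05 in edgeR, 1 was lower (Col4a1). A count of 0 among 7 is near the share of all genes. Whether the classes differ was not tested. Type IV collagen is assembled from 6 chains in fixed combinations, of which Col4a1 and Col4a2 form the trimer found in most basement membranes, and Col4a3, Col4a4 and Col4a5 form a trimer best known from the kidney. The type IV genes lie in head-to-head pairs. In the RefSeq annotation of the rat assembly GRCr8, which is not the Rnor_6.0 build of the counts, the starts of Col4a1 and Col4a2 are 76 bases apart and those of Col4a3 and Col4a4 412 bases apart. These stretches are shown because each pair shares the sequence between its starts and the values of its chains are compared below. The first stretch is the whole gap at chr16:84885521-84885596, read on the Col4a1 strand (+), with the only match to a searched motif in capitals. The second holds the 250 bases before the Col4a4 start at chr9:91323578-91323827 (minus strand), with the 88 bases that also belong to the 250-base window before the Col4a3 start in capitals.
Col4a1 and Col4a2 gap: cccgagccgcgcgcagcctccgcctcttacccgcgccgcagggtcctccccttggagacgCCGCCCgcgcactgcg
Col4a4: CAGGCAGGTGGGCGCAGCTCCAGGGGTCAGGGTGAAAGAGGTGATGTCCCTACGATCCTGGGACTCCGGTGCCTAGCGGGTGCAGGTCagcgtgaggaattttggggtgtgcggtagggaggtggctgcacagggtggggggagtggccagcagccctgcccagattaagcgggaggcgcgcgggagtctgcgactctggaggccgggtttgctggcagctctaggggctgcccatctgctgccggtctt

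Col4a4 (ENSRNOG00000014851) had 258 and 266 CPM in the siSCR libraries and 331 and 382 CPM in the siCpeb4 libraries. Both siCpeb4 libraries lay above both siSCR libraries, which were close to each other. It rose 1.36-fold, from 262 ± 5.69 to 357 ± 35.8 CPM (SD, n = 2), with a log2 change of 0.45 ± 0.10 (edgeR adjusted p = 0.0168). It was the only collagen called higher. The call ended without siSCR replicate 1 (edgeR adjusted p = 0.171), siSCR replicate 2 (0.0814) or siCpeb4 replicate 2 (0.129), with log2 fold changes from 0.34 to 0.55 over the 4 omissions. Its head-to-head neighbour Col4a3 had 31.0 and 35.8 CPM in siSCR and 29.7 and 39.7 CPM in siCpeb4. These groups overlapped, and the interval of its log2 fold change (-0.27 to 0.41) includes 0. It overlaps the interval for Col4a4 (0.23 to 0.67), and a difference between these neighbours was not tested.

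Col4a1 (ENSRNOG00000016281) had 1845 and 1934 CPM in siSCR and 1524 and 1590.1 CPM in siCpeb4. Its groups did not overlap, but its log2 fold change of -0.28 ± 0.10 did not pass (edgeR adjusted p = 0.134). Col4a2 had 1442 and 1601 CPM in siSCR and 1344 and 1388 CPM in siCpeb4, so these groups too were apart (-0.15 ± 0.10 on the log2 scale, edgeR adjusted p = 0.483; -0.23 to -0.076 with 1 library left out). Col4a5 had 137 and 164 CPM in siSCR and 137 and 144 CPM in siCpeb4, and its partner on the X chromosome, Col4a6, was called in neither direction (log2 fold change -0.27 ± 0.24, or -0.44 to -0.14 with 1 library left out). Col18a1, a multiplexin of basement membrane zones and the source of endostatin, had 199 and 229 CPM in siSCR and 191 and 209 CPM in siCpeb4, and the groups overlapped. The related Col15a1 had 8 and 2 counts in siSCR and 3 and 3 in siCpeb4 and was not tested. Of the 7 basement membrane members tested, 5 were negative, and the class median was -0.10.

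The ratio of 1 gene's counts to another's in the same library does not depend on the scaling of that library. The ratio of Col4a4 to Col4a1 counts was 0.140 and 0.137 in siSCR and 0.217 and 0.240 in siCpeb4, and the ratio of Col4a4 to Col4a5 was 1.88 and 1.62 against 2.42 and 2.66. Neither ratio overlapped between the groups. The ratio of Col1a1 to Col3a1 was 2.53 and 2.38 in siSCR and 2.09 and 1.89 in siCpeb4, so the counts of Col1a1 were lower relative to Col3a1 in both siCpeb4 libraries. The type V chains stayed close, with Col5a1 to Col5a2 ratios of 1.09 and 1.12 in siSCR and 1.10 and 1.06 in siCpeb4. Replicate 1 of siCpeb4 lay between the siSCR ratios and replicate 2 below them. With 2 libraries against 2, an exact two-sided permutation test of such a ratio cannot go below p = 0.333, so these are descriptions.

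**Figure D3:**
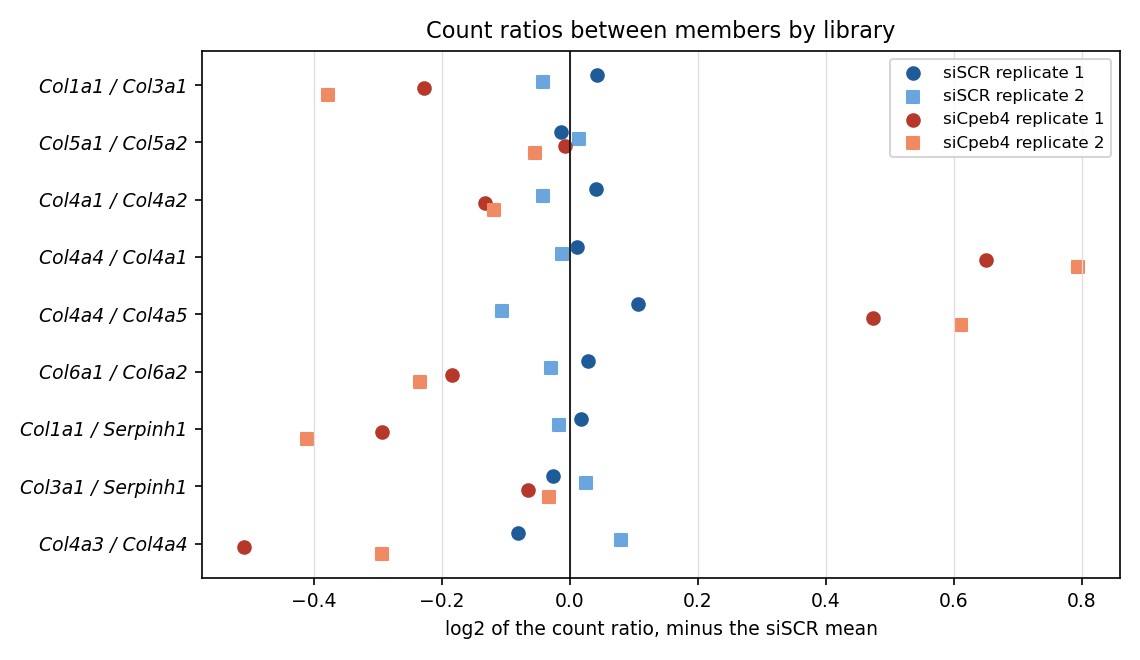
Log2 count ratio of 9 pairs of members in each library, with the siSCR mean of each pair set to 0 (blue, siSCR; red and orange, siCpeb4; circles, replicate 1; squares, replicate 2). The siCpeb4 points lie to the right for Col4a4 over Col4a1 and over Col4a5, to the left for Col1a1 over Col3a1 and over Serpinh1, and for Col5a1 over Col5a2 replicate 1 lies between the siSCR points and replicate 2 to their left.

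Among the other collagens, Col14a1 (ENSRNOG00000026415), a fibril-associated collagen, had 701 and 798 CPM in siSCR and 584 and 569 CPM in siCpeb4. The siSCR libraries lay further apart than the siCpeb4 libraries, and the groups did not overlap. Col14a1 fell by 23.1% (log2 fold change -0.38 ± 0.10, edgeR adjusted p = 0.0401), the highest adjusted p of the 6 called members. Without any 1 library it was no longer called (log2 fold change from -0.47 to -0.28, edgeR adjusted p from 0.0614 to 0.426), and with upper-quartile scaling (adjusted p = 0.0518) or the library total alone (0.0649). The other fibril-associated chains with more than a few CPM were not called, at log2 fold changes of -0.26 ± 0.11 for Col12a1 and -0.32 ± 0.14 for Col16a1 (edgeR adjusted p = 0.234 and 0.233). With 1 library left out, Col12a1 ran from -0.37 to -0.16.

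Type VI collagen forms beaded filaments next to basement membranes. Of its chains, Col6a3 was not found under that symbol, so this account of type VI is partial. Col6a1 had 633 and 568 CPM in siSCR and 491 and 484 CPM in siCpeb4, a log2 change of -0.30 ± 0.10 (edgeR adjusted p = 0.108). Col6a2 had 525 and 491 CPM in siSCR and 472 and 482 CPM in siCpeb4, with one of -0.09 ± 0.10 (edgeR adjusted p = 0.72). The ratio of Col6a1 to Col6a2 counts was 1.21 and 1.16 in siSCR and 1.04 and 1.00 in siCpeb4, so the groups did not overlap in it either. In the network-forming Col8a1 the groups overlapped at 102 to 133 CPM. Col8a2 had 8.92 and 13.7 CPM in siSCR and 7.98 and 6.15 CPM in siCpeb4 (log2 fold change -0.65 ± 0.29, edgeR adjusted p = 0.262), with -0.34 without siSCR replicate 2 and -0.97 without siSCR replicate 1. Col13a1, a transmembrane collagen of cell junctions with the matrix, had 7.37 and 7.16 CPM in siSCR and 8.59 and 14.5 CPM in siCpeb4. Only siCpeb4 replicate 2 stood well above the rest, and the log2 fold change of 0.68 ± 0.29 did not pass (edgeR adjusted p = 0.231) and ran from 0.24 to 0.99 with 1 library left out.

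Chain modification in the endoplasmic reticulum showed no called member, against 1.87% lower and 1.54% higher among all genes tested. In so few genes a count of 0 is near those shares. At an unadjusted p under 0.05 in edgeR, 3 of the 4 lysyl hydroxylases and glycosyltransferases were lower, against 8.76% of all genes tested. The lysyl hydroxylases Plod1, Plod2 and Plod3 prepare lysines for crosslinks and glycosylation. Plod3 had 125 and 131 CPM in siSCR and 101 and 102 CPM in siCpeb4 (log2 fold change -0.34 ± 0.11, edgeR adjusted p = 0.105). Plod1 had 102 and 93.9 CPM in siSCR and 78.4 and 82.1 CPM in siCpeb4 (log2 fold change -0.29 ± 0.12, edgeR adjusted p = 0.202). Plod2 had 395 and 342 CPM in siSCR and 260.1 and 332 CPM in siCpeb4, so the groups were separated only narrowly. Its log2 fold change was -0.50 and called without siCpeb4 replicate 2 (edgeR adjusted p = 0.0358) but -0.15 without siCpeb4 replicate 1 (edgeR adjusted p = 0.546). Colgalt1, which adds galactose to hydroxylysine, had 117 to 126 CPM in all 4 libraries, and the interval of its log2 fold change was -0.26 to 0.20.

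The prolyl 4-hydroxylase subunits, whose product stabilises the helix, had log2 fold changes of -0.08 ± 0.10 for P4ha1, -0.18 ± 0.12 for P4ha2 and -0.14 ± 0.14 for P4ha3. With 1 library left out, P4ha2 ran from -0.31 to -0.0091 (the latter without siSCR replicate 1) and P4ha3 from -0.28 to 0.01. P4ha1 had 259 and 255 CPM in siSCR and 239 and 249.7 CPM in siCpeb4, and the groups of P4ha2 and P4ha3 overlapped. P3h1, a prolyl 3-hydroxylase, had 109 and 113 CPM in siSCR and 103 and 93.8 CPM in siCpeb4 (edgeR adjusted p = 0.497). Serpinh1 (ENSRNOG00000016831), the collagen chaperone HSP47, had 2062 and 1958 CPM in siSCR and 1798 and 1694 CPM in siCpeb4. Its groups did not overlap, and its log2 fold change of -0.20 ± 0.10 (95% interval -0.41 to 0.00088) did not pass (edgeR adjusted p = 0.314). The ratio of Col1a1 to Serpinh1 counts was 4.19 and 4.09 in siSCR and 3.38 and 3.12 in siCpeb4. That of Col3a1 to Serpinh1 was 1.66 and 1.72 against 1.61 and 1.65, a shift no larger than the gap between the siSCR libraries.

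Propeptide processing was led by Pcolce (ENSRNOG00000025001), a secreted protein that speeds cleavage of procollagen by BMP1. It had 759 and 738 CPM in siSCR and 589 and 595 CPM in siCpeb4. The groups lay well apart, and its log2 fold change of -0.34 ± 0.10 was just outside the threshold (edgeR adjusted p = 0.0587). It was called by DESeq2 (adjusted p = 0.0488) and by limma-voom (adjusted p = 0.0421). The proteinases Bmp1 and Adamts2 had log2 fold changes of -0.17 ± 0.12 and -0.19 ± 0.14 (edgeR adjusted p = 0.525 and 0.541), with groups that did not overlap.

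Lysyl oxidases initiate the crosslinks of collagen and elastin. Loxl4 (ENSRNOG00000015727) had 17 and 7 counts in siSCR and 51 and 51 in siCpeb4, or 2.92 and 2.00 CPM against 10.4 and 8.47 CPM. Every siCpeb4 library was far above the siSCR libraries, from a low starting level. Its log2 fold change of 1.87 ± 0.35 (95% interval 1.14 to 2.59; edgeR adjusted p = 0.00269) was the largest of the 42 members tested, with a wide interval. The call held with each library left out, at log2 fold changes from 1.68 to 2.21 and edgeR adjusted p from 0.0104 to 0.0264.

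The stretch before the Loxl4 start is shown because this gene had the largest change. It is the 250 bases at chr1:251365578-251365827 (minus strand) in the RefSeq annotation of GRCr8, with motif matches in capitals.
Loxl4: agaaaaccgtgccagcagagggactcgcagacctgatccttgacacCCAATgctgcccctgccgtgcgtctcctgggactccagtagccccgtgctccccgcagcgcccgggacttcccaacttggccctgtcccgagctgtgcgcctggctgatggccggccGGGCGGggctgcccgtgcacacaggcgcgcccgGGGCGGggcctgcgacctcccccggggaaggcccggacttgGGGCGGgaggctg

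Of the 60 members, 48 had an entry in the RefSeq promoter table. The TATA box was searched as TATAAA, the CCAAT box as its own letters and the GC box as GGGCGG, each on both strands of the 250 bases before each start. No match overlaps another motif in the stretches printed. They were present in 12.9%, 34.0% and 30.5% of all 33469 windows of the table. The Loxl4 window held CCAAT and GGGCGG, the gap between Col4a1 and Col4a2 held GGGCGG, and the Col4a4 window held none of the 3. That gap has 76 bases, so the shares of 250-base windows are not a measure for it. Of the 32 tested members with a window, 25 (78.1%) held GGGCGG, 6 (18.8%) held CCAAT and 1 (3.12%) held TATAAA. The shares of the 8813 tested genes with a window were 60.5%, 35.7% and 6.22%. Such matches describe letters only.

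None of the other lysyl oxidases was called, against 1.87% lower and 1.54% higher among all genes tested. Lox had 143 and 142 CPM in siSCR and 114 and 118 CPM in siCpeb4 (log2 fold change -0.30 ± 0.11, edgeR adjusted p = 0.155). Loxl2 had 196 and 192 CPM in siSCR and 166 and 167 CPM in siCpeb4, with a log2 fold change of -0.22 ± 0.10, and Loxl1 one of -0.26 ± 0.13 (edgeR adjusted p = 0.307 and 0.319). Loxl1 was at -0.41 without siCpeb4 replicate 1 and at -0.12 without siCpeb4 replicate 2. Loxl3 had 33.3 and 32.4 CPM in siSCR and 34.6 and 35.0 CPM in siCpeb4, and its interval of -0.22 to 0.39 includes 0. The summed level of the 5 lysyl oxidases was 446 and 461 CPM in siSCR and 390.0 and 401 CPM in siCpeb4.

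**Figure D4:**
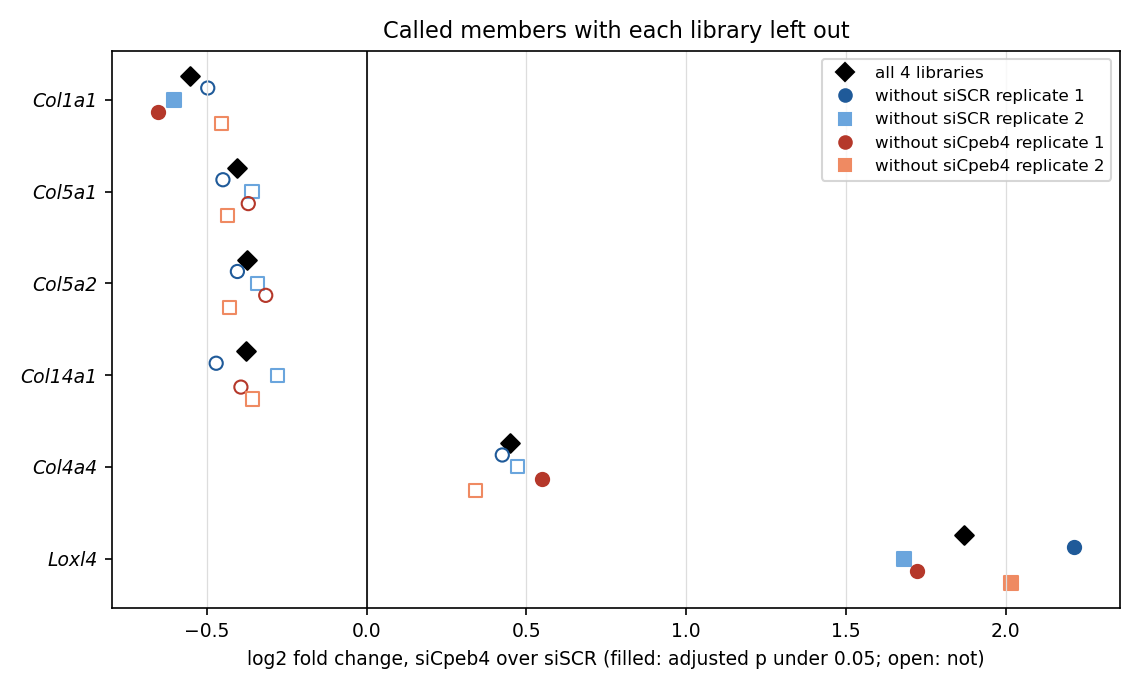
Log2 fold change (siCpeb4 over siSCR) of the 6 called members with all 4 libraries (black diamonds) and with each library left out in turn; filled symbols have an edgeR adjusted p under 0.05 and open symbols do not. All symbols of Loxl4 are filled, the 4 omissions are open for Col5a1, Col5a2 and Col14a1, and no symbol crosses 0.

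Summed over all members of a class, tested or not, fibrillar collagens had 13552 and 12961 CPM in siSCR and 10119 and 9281 CPM in siCpeb4, a log2 ratio of group means of -0.45. Without Col1a1 the sums were 4918 and 4954 CPM against 4045 and 4004 CPM, a log2 ratio of -0.29, so Col1a1 made up a large part of the class difference but not all of it. Basement membrane collagens had 3957 and 4212 CPM in siSCR and 3567 and 3764 CPM in siCpeb4, a log2 ratio of -0.16. Here the groups were separated by less than the siSCR libraries differed. Other collagens had 2231 and 2253 CPM against 1852 and 1895 CPM (log2 ratio -0.26). The enzymes and Serpinh1 together had 4706 and 4469.6 CPM against 3959 and 3908 CPM (log2 ratio -0.22). In every class both siCpeb4 sums lay below both siSCR sums. All collagens together held 1.96% and 1.91% of gene counts in siSCR and 1.55% and 1.52% in siCpeb4.

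**Figure D5:**
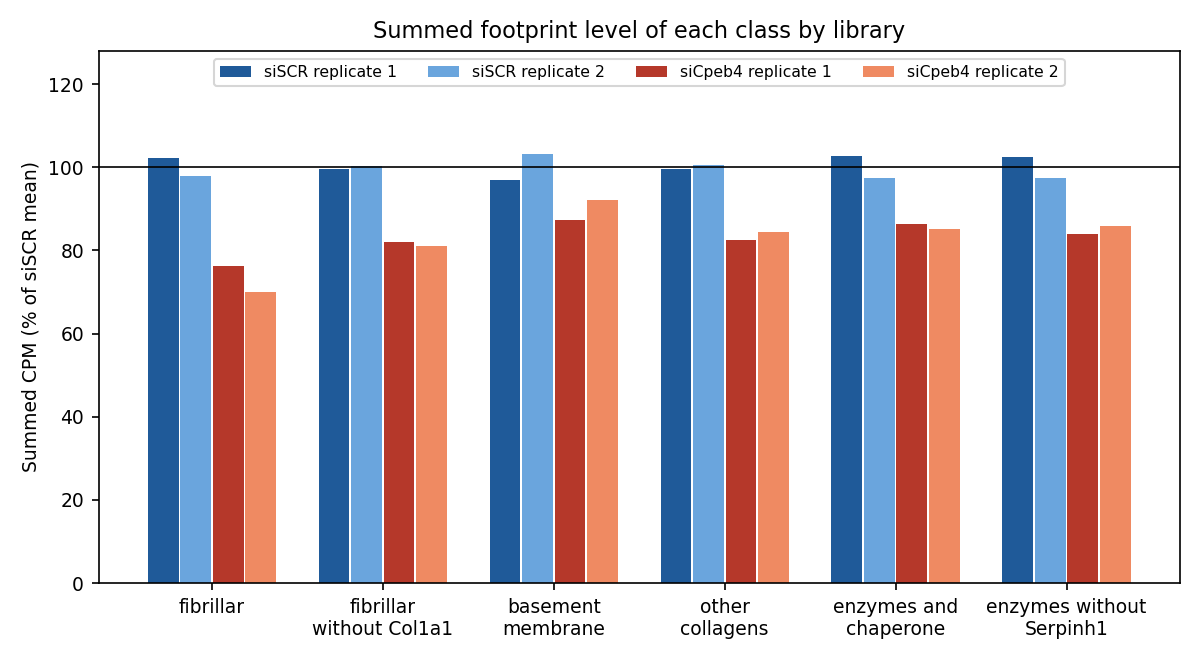
Summed footprint level of each class in each library as a percentage of its siSCR mean (bars, 1 per library; blue, siSCR; red and orange, siCpeb4; line at the siSCR mean). The siCpeb4 bars are lowest for fibrillar collagens and nearest to the siSCR bars for basement membrane collagens.

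With all libraries, medians of single members gave the same order as the sums. The median log2 fold change was -0.40 for the 8 fibrillar, -0.24 for the 10 other and -0.10 for the 7 basement membrane collagens tested, and -0.19 for the 17 enzymes. All 8 fibrillar chains tested lay below their siSCR mean in both siCpeb4 libraries. So did 5 of 7 basement membrane chains, 7 of 10 other collagens and 14 of 17 enzymes. The share of all genes tested was not computed for this measure, so these counts have no background beside them. The groups did not overlap, with siCpeb4 lower, in 15 of 25 collagens and 12 of 17 enzymes, against 22.3% of all genes tested. Non-overlap with siCpeb4 higher was seen in 2 collagens and 2 enzymes, against 23.1% of all genes tested.

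Fibroblasts make most fibrillar collagen in the heart, and other cells than myocytes can remain in such cultures. All 12 listed fibroblast markers that are not collagens were tested. None of them was called, against 1.87% lower and 1.54% higher among all genes tested. A count of 0 among 12 is near those shares. Of the 12, 10 had a negative log2 fold change, against 50.5% of all genes tested, and the median of the 12 markers was -0.25. Their summed level was 2731 to 2822 CPM in siSCR and 2336 to 2546 CPM in siCpeb4, so the sums did not overlap. Most of this sum was Vim, at 1944 and 1950 CPM in siSCR and 1725 and 1768 CPM in siCpeb4. Taken singly, 8 of the 12 markers overlapped between the groups. The other 4 had both siCpeb4 libraries below both siSCR libraries, against 22.3% of all genes tested. The fibroblast receptor Pdgfra had 43.4 and 43.8 CPM in siSCR and 34.0 and 35.5 CPM in siCpeb4, and the fibroblast transcription factor Tcf21 had 18.3 and 22.1 CPM against 21.3 and 21.4 CPM. The part of fibroblast number in the collagen values was not tested, and in bulk libraries fewer cells of a type, less RNA per cell and fewer ribosomes per RNA cannot be told apart.

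Summed levels of the other listed markers were 167 to 200 CPM in siSCR and 164 to 178 CPM in siCpeb4 for 7 endothelial genes, and 5939 to 6069 CPM and 6200.4 to 6452 CPM for 8 smooth muscle and pericyte genes. They were 521 to 733 CPM and 455 to 638 CPM for 8 macrophage and leukocyte genes, and 314 to 338 CPM and 249.8 to 285 CPM for 6 epicardial and mesothelial genes. Most of this last sum was Msln, at 217 and 221 CPM in siSCR and 186 and 148 CPM in siCpeb4. Of the 5 epicardial and mesothelial genes tested, 3 overlapped between the groups. The other 2 had both siCpeb4 libraries below both siSCR libraries, against 22.3% of all genes tested. Most of the smooth muscle and pericyte sum was Acta2, at 4012 and 4123 CPM in siSCR and 4375 and 4710 CPM in siCpeb4. Tagln, its next largest gene, was lower in siCpeb4, at 1126 and 1045 CPM against 1200 and 1197 CPM in siSCR. Of the 8 genes, 3 had a negative and 5 a positive log2 fold change, against 50.5% negative among all genes tested. None of the markers listed here was called or at 0 in all libraries, but Krt19 had too few counts to test. Over all genes tested, 1.87% were called lower and 1.54% higher. The part of these markers in the collagen values was not tested either.

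In the wider collagen pathway, of 20 genes of folding and secretion tested, 1 fell and 1 rose, against 1.87% and 1.54% of all genes tested. Fkbp10, a prolyl isomerase of the endoplasmic reticulum that acts on procollagen, had 97.4 and 104.5 CPM in siSCR and 79.0 and 69.3 CPM in siCpeb4 (log2 fold change -0.45 ± 0.12, edgeR adjusted p = 0.0391). Colgalt2, the second collagen galactosyltransferase, had 6.34 and 5.73 CPM in siSCR and 11.5 and 12.3 CPM in siCpeb4, a 1.95-fold rise at the edge of the threshold (edgeR adjusted p = 0.0497). The median of these 20 genes was 0.01, close to that of all genes, and P4hb, the protein disulfide isomerase that is the partner of the P4ha subunits, had 1275 and 1144 CPM in siSCR and 1175.5 and 1226 CPM in siCpeb4. P3h3, a prolyl 3-hydroxylase, was not called, with 35.0 and 37.8 CPM against 30.5 and 30.9 CPM.

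Of 11 genes of propeptide processing and fibril assembly tested, 2 fell and 1 rose, beside the same shares of all genes tested (1.87% and 1.54%), which also apply to the receptors and turnover genes that follow. Adamts3, a procollagen N-proteinase, had 9.77 and 10.6 CPM in siSCR and 19.6 and 17.9 CPM in siCpeb4 and rose 1.85-fold (edgeR adjusted p = 0.0245). Fn1, the fibronectin on which collagen fibrils are laid down, had 4584 and 4018 CPM in siSCR and 2359 and 2941 CPM in siCpeb4 and fell (log2 fold change -0.70 ± 0.11, edgeR adjusted p = 0.000687). Tgfbi, a matrix protein that binds collagens, had 61.9 and 65.0 CPM against 47.1 and 36.4 CPM and fell as well (-0.61 ± 0.14, edgeR adjusted p = 0.0153). Sparc, which binds collagen in the matrix, was not called, at 4501 and 4507 CPM in siSCR and 4375 and 4037 CPM in siCpeb4. Of 6 receptors tested, 1 fell, the integrin chain Itga1, which binds collagen, with 270.3 and 226 CPM in siSCR and 170.4 and 193 CPM in siCpeb4 (log2 fold change -0.45 ± 0.11, edgeR adjusted p = 0.0285). Of 9 turnover genes tested, 1 fell, the metalloproteinase inhibitor Timp1, with 117 and 92.5 CPM in siSCR and 61.4 and 82.1 CPM in siCpeb4 (log2 fold change -0.55 ± 0.14, edgeR adjusted p = 0.0296). Fn1 kept its call in each omission of a library, and the other calls of these pathway lists did not. Their edgeR adjusted p then reached 0.231 for Fkbp10, 0.224 for Colgalt2, 0.222 for Adamts3, 0.179 for Tgfbi, 0.466 for Itga1 and 0.403 for Timp1.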

How the data were processed

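The deposited files hold raw ribosome footprint counts per Ensembl gene, with no normalisation by the authors. The tools named in the submitters' processing notes are Bowtie2, STAR 2.7 and HTSeq 0.12, with the build Rnor_6.0. Their roles and the strand setting are not given in the sources used here, so near-identical, overlapping and antisense genes are uncertain. The 5 summary rows were left out; reads without a feature were 4.42% to 4.63% of each library.

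Counts were tested in edgeR 4.0.16 (R 4.3.3) with the quasi-likelihood F-test, two-sided, TMM scaling, filterByExpr with a minimum count of 10, the group as the model's single factor, and p-values adjusted over 11335 genes by Benjamini-Hochberg. CPM values are counts per 1000000 on TMM-scaled library sizes. SE and 95% intervals derive from the F statistic. Replicates differed beyond sampling noise (chi-square per degree of freedom 3.00 in siSCR and 5.32 in siCpeb4). Alternatives were other scalings, DESeq2 1.42.0, limma-voom (limma 3.58.1), other filters, a replicate block, a looser threshold (0.10), and fits that omit each library or the 20 most abundant genes. The fit was also run on simulated counts with the same spread for every gene and changes larger than those of the called collagens. That run is no check on changes of their size. Members, classes, gene lists and tests were chosen with earlier results of these data known. Every member may be named. Full values were given to called members, the 3 smallest p per class and a few fixed chains. Of the pathway lists, they were given to called genes. P4hb, P3h3, Sparc, Pdgfra, Tcf21, Vim, Acta2, Tagln, Msln and Krt19 were added after their values were seen. Genes are named by the symbols in the files.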

Additional observations from a re-analysis of the deposited data

How the results depend on the processing

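Of the 42 members tested, 34 kept the sign of their log2 fold change with each library left out; the 8 others were uncalled. Of the 6 called members, Loxl4 held under every alternative that gave an adjusted p. DESeq2 gave none for Loxl4 or Colgalt2. The number of collagens called lower, 4 in the reported fit, was 2 when scaled to the library total alone and 0 to 1 with 1 library left out. Collagens called higher were 0 to 1 with 1 library left out. Enzymes called lower were 1 with DESeq2, with limma-voom, without the low-count filter, at a threshold of 0.10 and with the crossed pairing below, and 0 to 1 with 1 library left out. Genes of folding and secretion called lower were 0 with the library total alone or DESeq2 and 0 to 1 with 1 library left out; those called higher were 0 with RLE size factors, with limma-voom and with each library left out. For processing and fibril assembly, 1 was called lower with DESeq2 or without the 20 most abundant genes, which include Fn1, and 1 to 2 with 1 library left out; 0 were called higher with DESeq2 or with 1 library left out. Receptors and turnover genes called lower were 0 with the library total alone or DESeq2, and 0 to 1 and 0 to 2 with 1 library left out. The cause of these changes was not tested, apart from the fewer samples of an omission.

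The median of the fibrillar chains was -0.37 with the library total alone and -0.43 to -0.37 with 1 library left out. That of basement membrane collagens was -0.19 to -0.059, of other collagens -0.35 to -0.23 and of enzymes -0.23 to -0.16 with 1 library left out. The summed level of other collagens had a log2 ratio of -0.23 with the library total alone. Over all genes, 386 calls became 179 with DESeq2, 606 without the low-count filter and 212 to 318 with 1 library left out.

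Libraries with the same replicate number did not deviate together (r = -0.11 over 11335 genes), so the number was not taken as a pairing. With it as a replicate block, 2 collagens were called lower (Col5a2 and Col14a1 were not, at edgeR adjusted p = 0.0698 and 0.0764) and 0 genes of folding and secretion were called higher. The crossed pairing, chosen after seeing the data, called 6 collagens lower and 1 higher, and 1 enzyme lower and 1 higher. Depth limits Loxl4, Col13a1, Col24a1, Col2a1 and Col22a1.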
